A study of Oryza sativa with 17 samples.

Results

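Genes of trehalose metabolism and of the sugar starvation response, 6 in all, were followed in rice seeds germinating in the cold. They were chosen by their loci in the deposited gene table: the trehalose-phosphate phosphatase genes OsTPP7 (LOC_Os09g20390) and OsTPP1 (LOC_Os02g44230), the trehalose-phosphate synthase gene OsTPS1 (LOC_Os05g44210), the kinase genes SnRK1A (LOC_Os05g45420) and OsCIPK15 (LOC_Os11g02240), and the transcription factor gene MYBS1 (LOC_Os01g34060). All 6 of 6 loci were found among the 23223 genes of the table, and all 6 were among the 21949 genes tested. The seeds belonged to WR04-6, a weedy rice accession, and to QSZ, a cultivated rice accession. Whole seeds of both were kept at 10 °C and taken on days 10, 12 and 14 of imbibition (DAI, days after imbibition), and their polyadenylated RNA was sequenced. WR04-6 had 3 libraries at each day, and QSZ had 2 libraries at 10 DAI, which carry the replicate numbers 2 and 3, and 3 libraries at each of 12 and 14 DAI.

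Trehalose-6-phosphate is made from UDP-glucose and glucose-6-phosphate by trehalose-phosphate synthases (TPS) and is dephosphorylated to trehalose by trehalose-phosphate phosphatases (TPP). It is a signal of sugar supply in plants and restrains the SnRK1 kinases, which switch on genes for the use of reserves when sugar is scarce. In rice seedlings the calcineurin B-like interacting kinase CIPK15 acts upstream of SnRK1A under low oxygen, and SnRK1A acts through MYBS1, an activator of sugar-repressed alpha-amylase genes. OsTPP7 is known for its part in germination under water, where it favours growth of the coleoptile.

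The deposited descriptions supported these names unevenly. The descriptions name trehalose-phosphate phosphatase 7, trehalose-phosphate phosphatase 1 and trehalose-phosphate synthase 1 at the first 3 loci, and SnRK1A is described there as the serine/threonine kinase OSK1. MYBS1 carried only a transcript name. OsCIPK15 carried the same partial description as LOC_Os12g02200, a locus on chromosome 12, and neither text names a kinase, so reads that match both loci may have been divided between them and values of OsCIPK15 are uncertain to that extent. In the coordinates of the deposited table (gene IDs of the MSU v7.0 annotation), OsTPP7 lies on chromosome 9 from 12251875 to 12254087 on the plus strand, and OsTPP1 on chromosome 2 from 26767603 to 26771633 on the minus strand. OsTPS1 lies on chromosome 5 from 25713720 to 25722089 on the plus strand, and SnRK1A on the same chromosome from 26346997 to 26351609 on the minus strand. OsCIPK15 lies on chromosome 11 from 630580 to 633695 on the minus strand, and MYBS1 on chromosome 1 from 18755268 to 18756900 on the plus strand. OsTPP1 overlaps a second annotated locus on the same strand, LOC_Os02g44235, which was listed between 0 and 0.0293 FPKM and was not tested.

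Levels are given as FPKM, the number of fragments scaled by transcript length and library size. The libraries summed to between 51209499 and 72494532 estimated counts in WR04-6 and between 33280479 and 68909607 in QSZ, where about 4 estimated counts stand for 1 sequenced fragment. FPKM ran higher in WR04-6 for genes in general. The median log2 difference over all genes tested was 0.26, 0.43 and 0.35 in FPKM at 10, 12 and 14 DAI, and 0.03, 0.06 and 0.08 after the TMM scaling used for every fold change below, so fold changes are relative to that scaling. The seed markers (2 glutelins, the 19 kDa globulin and the regulator OsVP1) were present in every library. Their summed FPKM ranged from 1975 to 6142 in WR04-6 libraries and from 5713 to 11059 in QSZ libraries at 10 DAI, from 2692 to 3677 in WR04-6 and from 9401 to 19287 in QSZ at 12 DAI, and from 2210 to 3946 in WR04-6 and from 8284 to 21464 in QSZ at 14 DAI. After TMM scaling 1, 4 and 4 of the 4 seed markers were lower in WR04-6 at 10, 12 and 14 DAI. The summed FPKM of 2 green-tissue markers (RbcS and CAB2) was at most 4.23 in WR04-6 and 15.3 in QSZ. The accessions were studied because they germinate differently in the cold, and accession and extent of germination cannot be told apart here. In whole seeds, fewer cells of a type and less RNA per cell cannot be told apart either. The part of seed composition in the differences below was not tested.

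**Figure D1:**
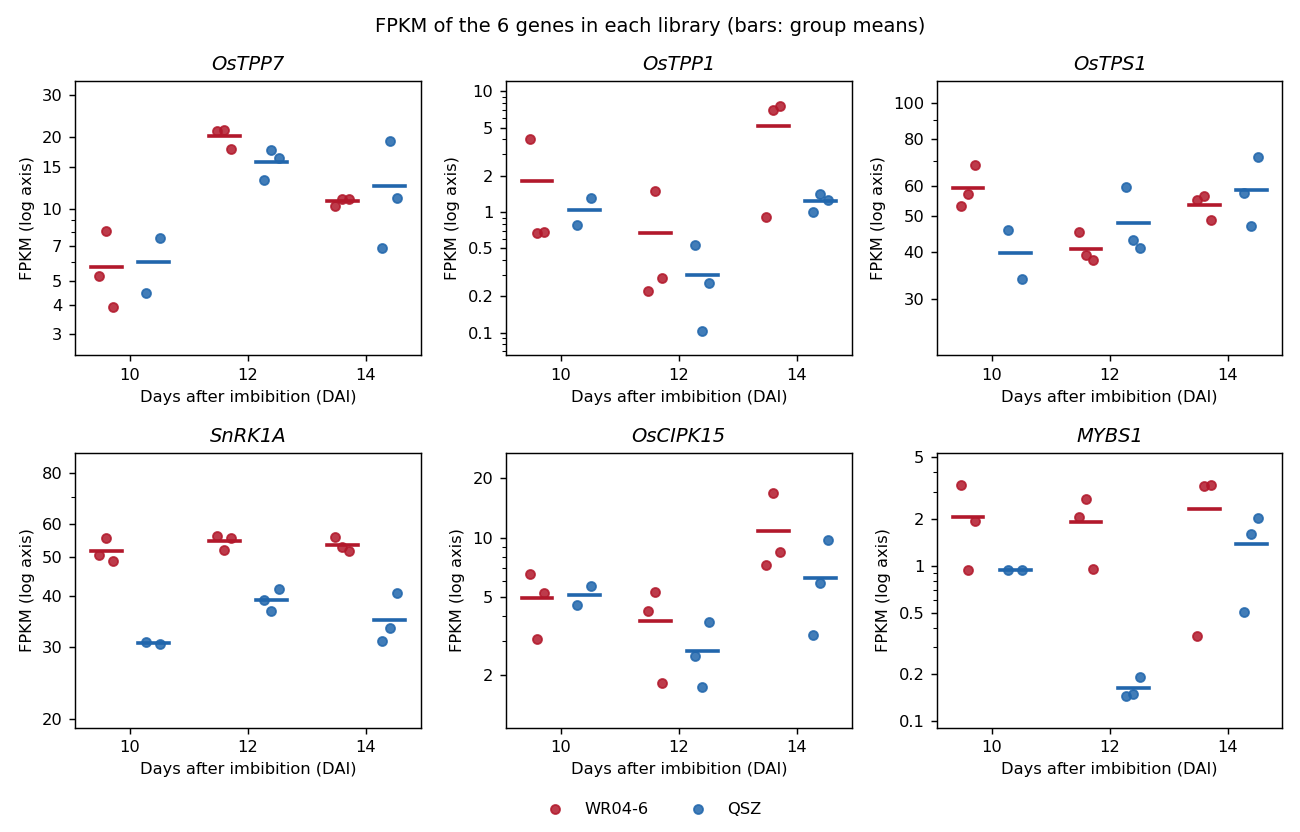
FPKM (log axis) of each of the 6 genes by day after imbibition. Each point is 1 library, WR04-6 in red on the left and QSZ in blue on the right, and bars are group means. OsTPP7 had its lowest mean at 10 DAI in both accessions, SnRK1A was above every QSZ library in every WR04-6 library, and MYBS1 was lowest in the 3 QSZ libraries of 12 DAI.

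The first question was whether the accessions differed in these genes on the same day. Of the 6 genes, MYBS1 at 12 DAI was the only one that passed the test on any day, and it was higher in WR04-6. The test was edgeR's quasi-likelihood test on estimated counts, with a call at a Benjamini-Hochberg adjusted p below 0.05 over all genes and a change of at least 2-fold. At 10 DAI 0 of 6 genes were called, where 23.6% of all genes tested were called. At 12 DAI 1 of 6 was called, against 29.5% of all genes. At 14 DAI 0 of 6 were called, against 21.3% of all genes. At an unadjusted p below 0.05 there were 1, 2 and 2 of the 6 genes at 10, 12 and 14 DAI. The share of all genes at that unadjusted p was not computed. At an adjusted p below 0.05 and any fold it was 41.6%, 47.7% and 39.3%, and the unadjusted share cannot be smaller. DESeq2 and limma called 0 of 6 at both 10 and 14 DAI. The median log2 fold change of the 6 genes was 0.42, 0.11 and 0.39 at the 3 days. In FPKM, 2, 3 and 1 of the 6 genes had WR04-6 and QSZ libraries that did not overlap, where 63.0%, 66.1% and 58.2% of all genes tested did not overlap.

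**Figure D2:**
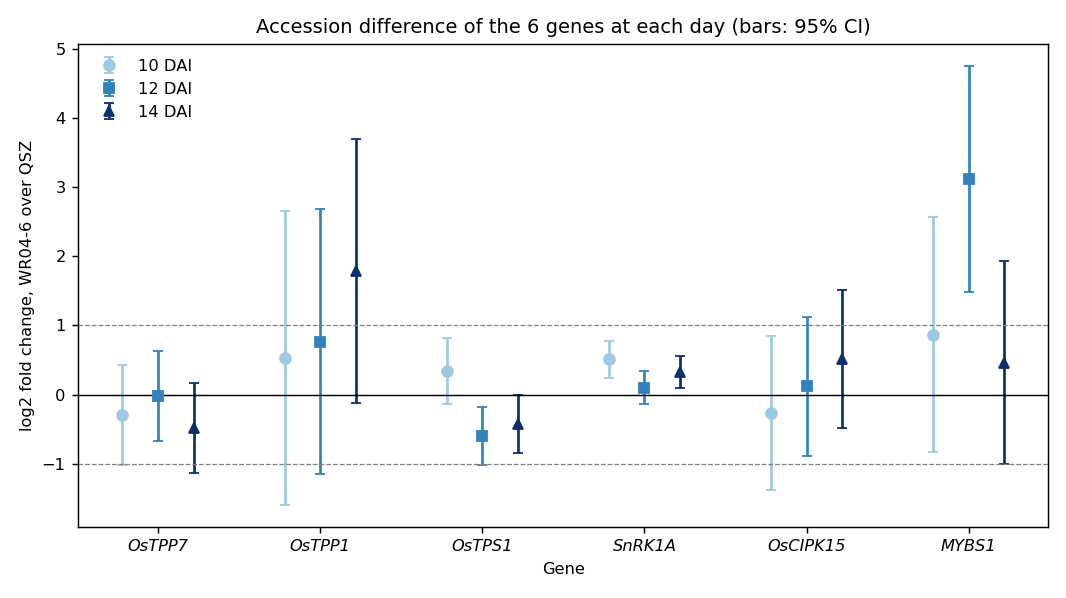
Log2 fold change of WR04-6 over QSZ after TMM scaling for the 6 genes at 10, 12 and 14 DAI, with 95% confidence intervals from the edgeR fit. Dashed lines mark a 2-fold change. The MYBS1 interval at 12 DAI, 1.49 to 4.76, lies wholly above the upper line, and every other interval reaches inside the lines.

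OsTPS1, whose product makes trehalose-6-phosphate, was the most abundant of the 3 trehalose genes in FPKM, with accession differences of both signs. Its FPKM was 53.1, 57.2 and 68.1 in WR04-6 at 10 DAI, against 45.8 and 33.8 in QSZ. At 12 DAI it was 45.1, 39.3 and 38.0 in WR04-6, against 59.6, 43.0 and 40.9 in QSZ. At 14 DAI it was 55.0, 56.6 and 48.7 in WR04-6, against 57.7, 46.8 and 71.7 in QSZ. The libraries were separate only at 10 DAI, with WR04-6 above, and overlapped at 12 and 14 DAI. The log2 fold change was 0.34 ± 0.22 (SE) at 10 DAI, -0.60 ± 0.20 at 12 DAI and -0.42 ± 0.20 at 14 DAI. The adjusted p was 0.24, 0.022 and 0.10, and the 12 DAI difference of 1.51-fold lower in WR04-6 was under the 2-fold limit, while 47.7% of all genes passed that p at any fold. At 12 DAI the adjusted p was 0.32 when library totals replaced TMM scaling, with a log2 fold change of -0.22. With limma on FPKM at pseudocounts of 0.01, 0.1 and 1 it was 0.32 each time (log2 -0.21). Quantile normalization gave 0.071 (log2 -0.46). The change of the accession difference between days was not called by edgeR (adjusted p = 0.10) and was called by DESeq2 (adjusted p = 0.048). Neither accession showed a change over the days that passed the test, with an adjusted p of 0.37 in WR04-6 and 0.17 in QSZ.

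OsTPP7 changed with the day in both accessions and did not differ between them beyond its error. Its FPKM was 5.25, 8.08 and 3.93 in WR04-6 at 10 DAI, against 4.47 and 7.60 in QSZ. At 12 DAI it reached 21.2, 21.4 and 17.8 in WR04-6, against 13.2, 17.7 and 16.3 in QSZ. At 14 DAI it was 10.26, 11.05 and 10.98 in WR04-6, against 6.89, 19.3 and 11.2 in QSZ. The 3 WR04-6 libraries of 12 DAI stood above all other libraries of WR04-6, and the QSZ libraries of 14 DAI overlapped those of both earlier days. Ordered by mean FPKM, the groups ran from WR04-6 at 12 DAI (20.1 ± 2.04, SD) through QSZ at 12 DAI (15.8 ± 2.31), QSZ at 14 DAI (12.4 ± 6.29), WR04-6 at 14 DAI (10.8 ± 0.438) and QSZ at 10 DAI (6.03 ± 2.21, n = 2) to WR04-6 at 10 DAI (5.75 ± 2.12), with n = 3 except where given. The libraries of WR04-6 at 12 DAI did not overlap those of the next group, nor did those of WR04-6 at 14 DAI and QSZ at 10 DAI, while the other neighbours overlapped. The accession difference was -0.30 ± 0.34, -0.02 ± 0.30 and -0.48 ± 0.30 on the log2 scale at 10, 12 and 14 DAI, with adjusted p of 0.52, 0.96 and 0.22. At 12 DAI its sign depended on the scaling and was 0.36 with library totals in place of TMM. The 95% confidence interval at 12 DAI was -0.68 to 0.63.

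Over the 3 days in WR04-6, OsTPP7 was the only one of the 6 genes called, with an adjusted p of 0.028 (edgeR F test), where 1.06% of all genes tested were called. Its log2 change was 1.80 ± 0.31 for 12 over 10 DAI, -0.91 ± 0.31 for 14 over 12 DAI and 0.89 ± 0.31 for 14 over 10 DAI. None of these pairs passed on its own, the first with an unadjusted p of 4.9e-05 and an adjusted p of 0.10, in a comparison where 0.0273% of all genes were called. The call over time was lost when any single WR04-6 library was left out other than replicate 2 of 10 DAI. The adjusted p was 0.094 and 0.065 without replicates 1 and 3 of 10 DAI, 0.094, 0.096 and 0.074 without replicates 1, 2 and 3 of 12 DAI, and 0.053, 0.060 and 0.0503 without replicates 1, 2 and 3 of 14 DAI.

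Over the 3 days in QSZ, OsTPP7, SnRK1A and MYBS1 were called, 3 of 6 genes, where 21.0% of all genes tested were called. The 2 QSZ libraries of 10 DAI held the fewest estimated counts of the 17 libraries, 33280479 and 42313486. The part of this lower depth in the QSZ changes from 10 DAI was not tested. OsTPP7 rose 2.89-fold at 12 over 10 DAI (log2 1.53 ± 0.36, adjusted p = 0.0069), in a comparison where 13.3% of genes were called and 5.55% rose. The adjusted p over time was 0.022, and it was 0.15 without QSZ replicate 2 of 10 DAI and 0.052 without replicate 2 of 12 DAI. With library totals in place of TMM it was 0.052. Without the first of these libraries the 12 over 10 DAI change was 1.26, with an adjusted p of 0.076. The accession by day term for OsTPP7 had an adjusted p of 0.74, so a different time course in the 2 accessions was not detected. For the 6 genes together the accession by day test called 0 of 6, where 8.98% of all genes were called. There were 2 genes (OsTPS1 and MYBS1) at an unadjusted p below 0.05, and the share of all genes at that p was not computed.

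OsTPP1, a phosphatase gene linked in rice to chilling tolerance and germination, was low and varied most among replicates. Its FPKM was 4.05, 0.672 and 0.679 in WR04-6 at 10 DAI, against 0.784 and 1.29 in QSZ. At 12 DAI it was 0.220, 1.51 and 0.286 in WR04-6, against 0.530, 0.103 and 0.258 in QSZ. At 14 DAI it was 0.917, 7.00 and 7.62 in WR04-6, against 1.01, 1.41 and 1.26 in QSZ. On each day 1 WR04-6 library lay apart from the other 2, and at 14 DAI the 2 high WR04-6 libraries were above every QSZ library of the series while the other was below all 3 QSZ libraries of that day. The log2 fold change was 0.53 ± 0.99, 0.77 ± 0.90 and 1.79 ± 0.89 at 10, 12 and 14 DAI, with adjusted p of 0.70, 0.50 and 0.12. The sign at 10 DAI turned to -0.80 without WR04-6 replicate 1, and the sign at 12 DAI turned to -0.56 without WR04-6 replicate 2. Replicates of 1 group differed by a mean SD of 0.97 on the log2 scale, and 97.4% of genes tested had a smaller one. At 14 DAI the level rests on about 457 fragments in WR04-6 (95% Poisson interval 416 to 501) and about 110 in QSZ (90.4 to 133).

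SnRK1A, the catalytic subunit of the starvation kinase, was the most even of the 6 genes. Its FPKM was 50.4, 55.5 and 48.7 in WR04-6 at 10 DAI, against 30.9 and 30.6 in QSZ. At 12 DAI it was 56.0, 52.0 and 55.7 in WR04-6, against 39.2, 36.9 and 41.7 in QSZ. At 14 DAI it was 55.9, 52.9 and 51.7 in WR04-6, against 31.0, 33.4 and 40.8 in QSZ. All 9 WR04-6 libraries, between 48.7 and 56.0, stood above all 8 QSZ libraries, between 30.6 and 41.7. Such separation was not particular to SnRK1A. The SNF4-like gene LOC_Os03g63940 (28.9 to 37.2 against 19.6 to 26.6) and the TPS gene LOC_Os01g53000 (36.6 to 63.7 against 22.9 to 35.0) showed it too. By single day, 63.0%, 66.1% and 58.2% of all genes tested did not overlap, and the share over all libraries together was not computed. The general shift of FPKM given above lies in the same direction. After TMM scaling the log2 fold change was 0.51 ± 0.13 at 10 DAI, 0.10 ± 0.11 at 12 DAI and 0.33 ± 0.11 at 14 DAI, and the adjusted p was 0.0051, 0.49 and 0.031. The 10 and 14 DAI differences, 1.42-fold and 1.25-fold higher in WR04-6, passed the adjusted p but not the 2-fold limit, and 41.6% and 39.3% of all genes passed that p. With library totals in place of TMM the log2 fold change was 0.70, 0.48 and 0.62 at the 3 days, under the 2-fold limit, and the adjusted p at 12 DAI was 0.0015. At 14 DAI the adjusted p was 0.055 with median-ratio size factors and 0.14 with the libraries of that day alone. The replicate SD of 0.086 on the log2 scale was exceeded by 97.7% of genes tested.

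Over the days SnRK1A stayed level in WR04-6, with pairwise log2 changes between -0.04 and 0.07 and an adjusted p of 0.96. In QSZ its adjusted p over time was 0.032, with a log2 change of 0.48 ± 0.13 for 12 over 10 DAI (adjusted p = 0.012, 1.40-fold). That call over time was lost without QSZ replicate 2 or 3 of 10 DAI (adjusted p of 0.058 and 0.073) and without replicate 3 of 12 DAI (0.12). It was also absent with library totals in place of TMM (0.15) and with the replicate number as a block (0.051). Limma on FPKM with pseudocounts of 0.01, 0.1 and 1 did not make it either (0.077, 0.081 and 0.082).

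OsCIPK15, the kinase upstream of SnRK1A under low oxygen, overlapped between accessions on every day. Its FPKM was 6.55, 3.07 and 5.23 in WR04-6 at 10 DAI, against 4.52 and 5.66 in QSZ. At 12 DAI it was 4.22, 5.31 and 1.84 in WR04-6, against 2.52, 1.74 and 3.72 in QSZ. At 14 DAI it was 7.22, 16.8 and 8.43 in WR04-6, against 3.21, 5.86 and 9.66 in QSZ. The highest mean in each accession was that of 14 DAI and the lowest that of 12 DAI, but the groups next to each other in the order of means all overlapped. The log2 fold change was -0.27 ± 0.52, 0.12 ± 0.47 and 0.51 ± 0.47 at 10, 12 and 14 DAI, with adjusted p of 0.71, 0.85 and 0.41. Over the days the adjusted p was 0.26 in WR04-6 and 0.22 in QSZ. LOC_Os12g02200, the locus with the same description, was 2-fold or more lower in WR04-6 at 12 DAI (log2 -1.12 ± 0.36, adjusted p = 0.021, lost in 2 of 17 fits that each left out 1 library), at FPKM that overlapped between the accessions. That call was made in 6 of 11 processing alternatives, with a log2 value as small as -0.69. The sum of both loci, an alternative added after the values were seen, gave -0.92 at 12 DAI with an adjusted p of 0.060.

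MYBS1, the activator at the end of this chain, was low in both accessions and lowest in QSZ at 12 DAI. Its FPKM was 3.32, 0.946 and 1.93 in WR04-6 at 10 DAI, against 0.942 and 0.947 in QSZ. At 12 DAI it was 2.07, 2.71 and 0.953 in WR04-6, against 0.146, 0.150 and 0.192 in QSZ. At 14 DAI it was 0.354, 3.25 and 3.31 in WR04-6, against 0.505, 1.61 and 2.03 in QSZ. Only at 12 DAI were the libraries separate, and the 3 QSZ libraries of that day were the lowest of all 17. The log2 fold change at 12 DAI was 3.12 ± 0.76, or 8.72-fold higher in WR04-6 (adjusted p = 0.0039), and 16.3% of all genes tested were called higher on that day. At 10 and 14 DAI it was 0.87 ± 0.79 and 0.46 ± 0.69, with adjusted p of 0.41 and 0.62. The change between days of the accession difference was not called (adjusted p = 0.17), so the 12 DAI difference is not shown to differ from that of the other days. The level in QSZ at 12 DAI rests on few reads, 17 to 22 estimated counts per library or about 14 fragments over the 3 libraries (95% Poisson interval 7.65 to 23.5), against about 171 fragments in WR04-6 (146 to 199). The call was made in all 17 fits that each left out 1 library, with log2 fold changes of 2.80 to 3.45. It was not made with quantile normalization in limma, where the log2 fold change was 1.81 and the adjusted p 0.052, and the log2 fold change was 1.27 with limma on log2(FPKM + 1), where it was called.

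In QSZ, MYBS1 fell at 12 over 10 DAI (log2 -2.38 ± 0.80, adjusted p = 0.040), where 7.72% of all genes fell. Its log2 change for 14 over 12 DAI was 2.92 ± 0.76 and was not called (adjusted p = 0.078), where 0.282% of all genes were. The adjusted p over time was 0.035. It was 0.062 and 0.059 without QSZ replicates 2 and 3 of 10 DAI, 0.079, 0.11 and 0.084 without replicates 1, 2 and 3 of 12 DAI, and 0.057 and 0.069 without replicates 2 and 3 of 14 DAI. The 12 over 10 DAI call was lost without WR04-6 replicate 1 of 12 DAI (0.051), without QSZ replicate 2 or 3 of 10 DAI (0.12 and 0.11) and without replicate 1, 2 or 3 of 12 DAI (0.081, 0.096 and 0.073). It was also not made with limma on log2(FPKM + 0.1) (adjusted p = 0.072) or log2(FPKM + 1) (log2 -0.74, adjusted p = 0.26), with quantile normalization (-1.40, 0.22), with counts divided by 4 (adjusted p = 0.066) or with the replicate number as a block (-2.21, 0.082). Over time the adjusted p was 0.054 and 0.20 in those limma fits, 0.17 with quantile normalization and 0.069 with the block. In WR04-6 no change over the days was detected, with an adjusted p of 0.99.

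In WR04-6, replicate 1 of 10 DAI, replicate 2 of 12 DAI and replicates 2 and 3 of 14 DAI held the high values of OsTPP1, OsCIPK15 and MYBS1, and replicate 1 of 14 DAI held the lowest value of all 3 genes on that day. Across the 8 QSZ libraries OsCIPK15 and MYBS1 had a Pearson r of 0.90 (exact permutation p = 0.0016, adjusted over 30 relations 0.047) and a Spearman rho of 0.95 (exact permutation p = 0.0011, adjusted 0.034). The r was 0.87 without the 2 libraries farthest from the median of OsCIPK15 and 0.83 for deviations from the day means. Across the 9 WR04-6 libraries the same pair had r = 0.44 (exact permutation p = 0.24, adjusted 0.57) and rho = 0.52 (exact permutation p = 0.16, adjusted 0.49), and r = 0.74 for deviations from the day means. Over the 8 QSZ libraries OsTPP1 had r = 0.79 with OsCIPK15 (exact permutation p = 0.018, adjusted 0.11). With MYBS1 it had r = 0.84 (exact permutation p = 0.0069, adjusted 0.0515). For deviations from the day means in QSZ, OsTPP1 had r = 0.44 with OsCIPK15 and 0.21 with MYBS1. SnRK1A had r = 0.93 with OsCIPK15 for the same deviations, against -0.60 for SnRK1A and OsCIPK15 in WR04-6. Over the 8 QSZ libraries as they stand, SnRK1A and OsCIPK15 had r = -0.056 (exact permutation p = 0.89, adjusted 0.94). It was -0.71 without the 2 farthest libraries. Over the 9 WR04-6 libraries SnRK1A and OsCIPK15 had r = -0.37 (exact permutation p = 0.33, adjusted 0.61). In WR04-6, OsTPP1 and MYBS1 had r = 0.59 over the 9 libraries and 0.86 for deviations from the day means. OsTPP1 and OsCIPK15 in WR04-6 had r = 0.81 (exact permutation p = 0.0058, adjusted 0.051) and rho = 0.88 (exact permutation p = 0.0031, adjusted 0.046), with r = 0.64 without the 2 farthest libraries and 0.62 for deviations from the day means. OsTPP7 and OsTPS1 ran in opposite directions in WR04-6, with r = -0.86 (exact permutation p = 0.0042, adjusted 0.051) and rho = -0.78 (exact permutation p = 0.017, adjusted 0.13). That r was -0.87 without the 2 farthest libraries and -0.34 for deviations from the day means, so within days the relation did not hold at that strength. In QSZ the pair of OsTPP7 and OsTPS1 had r = 0.0033 (exact permutation p = 0.99) and rho = -0.071 (exact permutation p = 0.88). All tests were two-sided, and 15 gene pairs were compared in each accession. The permutations shuffled values over all libraries of an accession, whatever their day. Their p-values therefore do not separate a shared course over the days from a relation within days. No p was computed for the deviations from the day means.

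**Figure D3:**
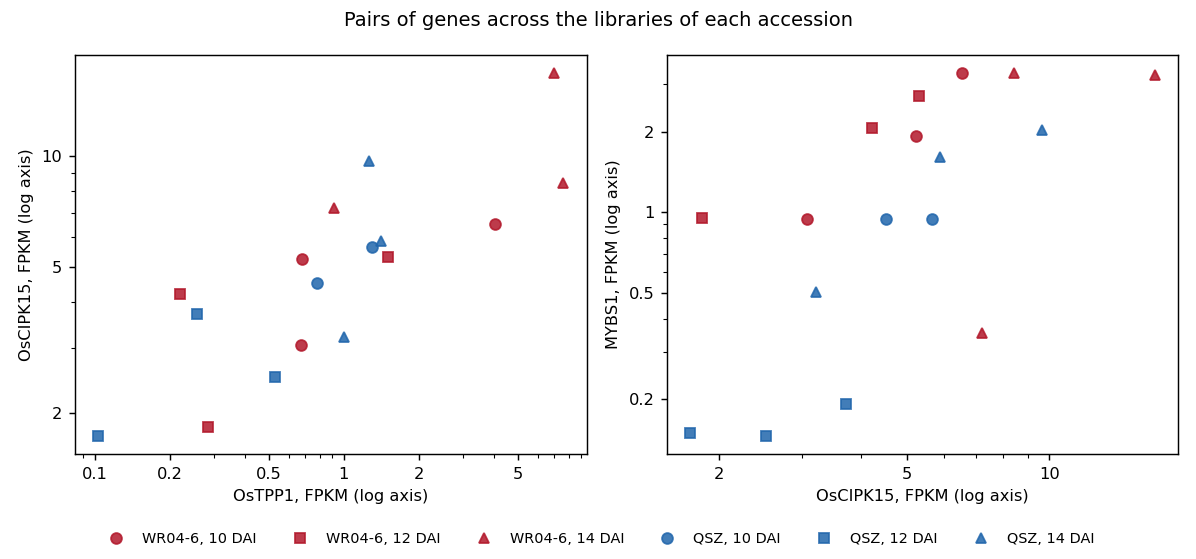
FPKM of OsCIPK15 against OsTPP1 (left) and of MYBS1 against OsCIPK15 (right), both axes logarithmic. Each symbol is 1 library, WR04-6 in red and QSZ in blue, with circles for 10, squares for 12 and triangles for 14 DAI. In the right-hand plot the 3 QSZ squares lie at the lower left and 2 QSZ triangles highest among the QSZ symbols, with r = 0.90 over the 8 QSZ libraries.

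For each of the 6 genes, the 2 genes most like it were named by Pearson's r of log2(FPKM + 0.1) over the 17 libraries, among 17702 genes averaging 1 FPKM or more. These are descriptions over libraries that share accession and day. OsTPP7 was most like the squalene monooxygenase gene LOC_Os03g12910 (r = 0.84) and LOC_Os01g42130 (r = 0.82). OsTPP1 was most like LOC_Os04g41200 (r = 0.88) and LOC_Os01g39860 (r = 0.87), and OsTPS1 most like LOC_Os09g12550 (r = 0.85) and LOC_Os03g50120, described as the zinc finger protein VAR3 (r = 0.82). SnRK1A was most like LOC_Os07g44020 (r = 0.98) and LOC_Os05g31920 (r = 0.97), but within WR04-6 these r were 0.68 and 0.60. OsCIPK15 was most like the HSPRO1-like gene LOC_Os01g63690 (r = 0.86) and LOC_Os01g53730 (r = 0.84). MYBS1 was most like LOC_Os07g05010, a phytochrome-interacting factor-like gene (r = 0.94), and LOC_Os04g57770 (r = 0.92).

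The trehalose list held the 21 genes outside the 6 that carry a gene ontology term naming trehalose, of which 20 were tested. It includes LOC_Os03g56580, described as the transcription factor JUNGBRUNNEN 1, and LOC_Os11g09010, described as lipase-like PAD4. Neither description names an enzyme of trehalose metabolism, and both genes enter the counts and medians below. The genes of the list differed between accessions in both directions. At 10 DAI 1 was higher and 3 lower in WR04-6, where 12.1% and 11.4% of all genes were. At 12 DAI 1 was higher and 7 lower, against 16.3% and 13.2% of all genes, and at 14 DAI 3 were higher and 5 lower, against 10.5% and 10.9%. The median log2 fold change of the tested list was -0.22, -0.83 and -0.07 at the 3 days, beside 0.03, 0.06 and 0.08 for all genes. Of the 4 seed markers 1 was called lower in WR04-6 at 10 DAI and 4 were at 12 and at 14 DAI, and their part in these counts was not tested.

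Of the 7 tested TPP genes outside the 6, 4 were called at 10 DAI, 4 at 12 DAI and 5 at 14 DAI, where 23.6%, 29.5% and 21.3% of all genes were. LOC_Os06g11840, annotated with TPP activity, was higher in WR04-6 on all 3 days. Its FPKM was 3.55, 2.11 and 2.64 in WR04-6 at 10 DAI against 0.124 and 0.0828 in QSZ, 1.73, 3.88 and 2.27 against 0.351, 0.468 and 0.226 at 12 DAI, and 2.31, 5.04 and 4.86 against 0.680, 0.293 and 0.180 at 14 DAI. The log2 fold change was 4.45 ± 0.68, 2.53 ± 0.50 and 3.07 ± 0.51 (adjusted p = 0.000161, 0.000903 and 0.000322). OsTPP6 ran the other way without overlap, at 1.28 to 2.74 FPKM in the 9 WR04-6 libraries and 8.86 to 22.5 FPKM in the 8 QSZ libraries. The log2 fold change of OsTPP6 was -2.76 ± 0.22, -3.72 ± 0.22 and -2.84 ± 0.21 at the 3 days (adjusted p = 5.23e-07, 1.69e-08 and 1.58e-07). OsTPP3 was lower on all 3 days too (log2 -1.62, -1.16 and -1.61), but at 12 DAI its adjusted p was 0.0498, and of 17 fits that left out 1 library 2, 12 and 1 lost the call at 10, 12 and 14 DAI. Of 12 processing alternatives, 7 called OsTPP3 at 12 DAI and 10 at 14 DAI. Among the 12 is the fit that summed the counts of OsCIPK15 and LOC_Os12g02200. It left other genes nearly unchanged, so it repeats the main fit for them, here and in the counts of 12 alternatives below. OsTPP9 was lower at 12 and 14 DAI (log2 -2.51 ± 0.29 and -1.93 ± 0.29). OsTPP10 at 10 DAI and OsTPP4 at 14 DAI were called lower at levels of at most 0.578 and 0.395 FPKM, and each of these calls was lost in 2 of the 17 fits. Of 12 processing alternatives 10 called OsTPP10 and 11 called OsTPP4 on those days. OsTPP7 was among the 5 of 9 tested TPP genes, with OsTPP1, OsTPP4, OsTPP10 and LOC_Os10g40550, that were not called at 12 DAI, where 29.5% of all genes were called.

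**Figure D4:**
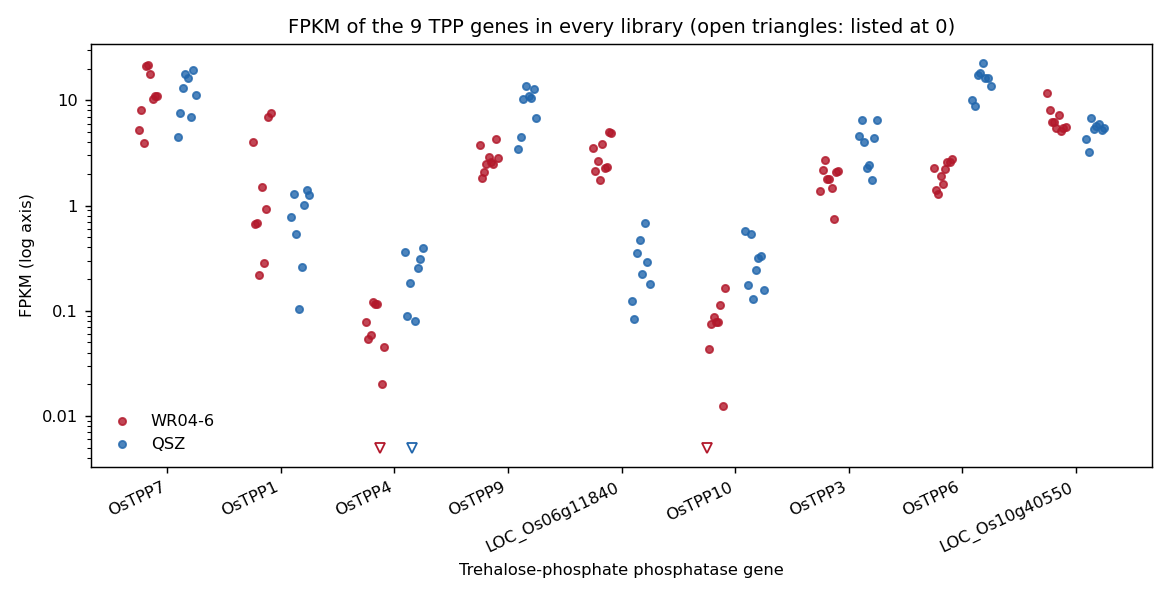
FPKM (log axis) of the 9 tested trehalose-phosphate phosphatase genes in every library over the 3 days, WR04-6 in red on the left and QSZ in blue on the right of each gene. Open triangles mark libraries listed at 0. LOC_Os06g11840 and OsTPP6 show no overlap between accessions, in opposite directions, while OsTPP7 ranges from 3.93 to 21.4 in WR04-6 and from 4.47 to 19.3 in QSZ.

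Of 10 further genes described as TPS, edgeR called 0, 2 and 2 at 10, 12 and 14 DAI, where 23.6%, 29.5% and 21.3% of all genes were called. At an unadjusted p below 0.05 there were 4, 7 and 5 of the 10. The share of all genes at that p was not computed, and it is at least the 41.6%, 47.7% and 39.3% with an adjusted p below 0.05. Whether their products make trehalose-6-phosphate was not tested. LOC_Os02g54820 was lower in WR04-6 at 12 DAI (log2 -1.47 ± 0.23, adjusted p = 0.000169) and LOC_Os01g54560 was higher at 14 DAI (1.19 ± 0.19, adjusted p = 0.000198). LOC_Os08g34580 was lower in WR04-6 at 12 DAI (-1.58 ± 0.33) and higher at 14 DAI (1.42 ± 0.33). Its FPKM was 22.6, 23.5 and 12.8 in WR04-6 at 14 DAI against 6.95, 5.09 and 5.87 in QSZ, and 4.16, 4.72 and 3.05 against 7.78, 9.41 and 10.1 at 12 DAI. In WR04-6 this gene rose by 2.29 ± 0.34 on the log2 scale at 14 over 12 DAI (adjusted p = 0.0092), as did LOC_Os01g54560 (1.01 ± 0.18, adjusted p = 0.020) and LOC_Os05g44100 (1.25 ± 0.22, adjusted p = 0.016), in a comparison where 0.652% of all genes rose. In QSZ, 3 of the 10 TPS genes were called higher at 12 over 10 DAI, where 5.55% of all genes were. Of the 20 tested genes of the trehalose list 7 were. The remaining TPS genes with a mean of at least 10 FPKM, LOC_Os01g53000, LOC_Os03g12360, LOC_Os05g44100, LOC_Os09g20990 and LOC_Os09g23350, had log2 fold changes of WR04-6 over QSZ between -0.85 and 0.78 and were not called between accessions. The trehalase gene LOC_Os10g37660, whose product splits trehalose into glucose, was lower in WR04-6 at 12 and 14 DAI (-1.51 ± 0.17 and -1.03 ± 0.17), and the second of these calls was lost in 3 of 17 fits. Of 12 processing alternatives 11 made the call at 12 DAI and 8 at 14 DAI, where the log2 value was as small as -0.59. LOC_Os11g09010, described as the lipase-like protein PAD4, was lower at 12 DAI (-1.08 ± 0.19, lost in 1 of 17 fits). That call was made in 8 of 12 processing alternatives, with a log2 value as small as -0.65.

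**Figure D5:**
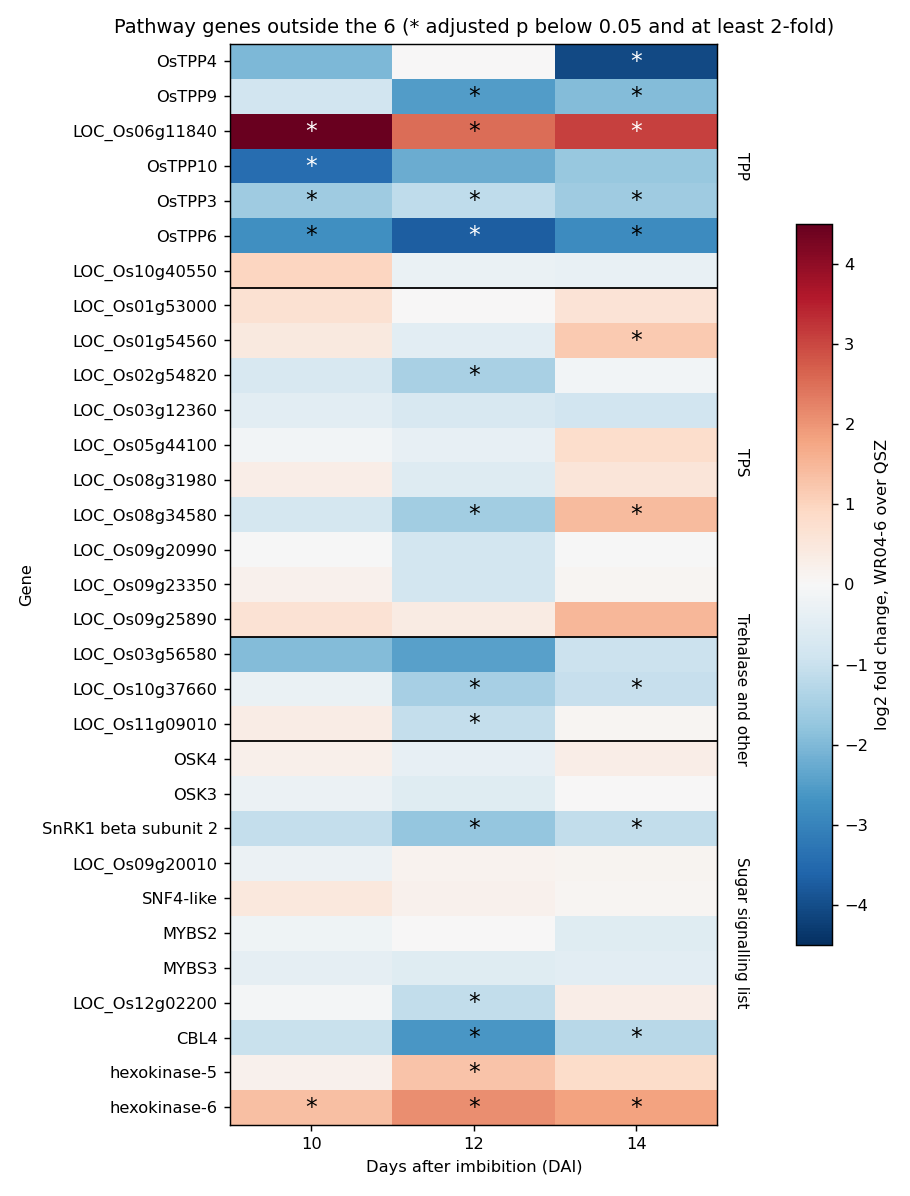
Log2 fold change of WR04-6 over QSZ at 10, 12 and 14 DAI for the 20 tested trehalose genes outside the 6 and the 11 genes of the sugar signalling list, red for higher and blue for lower in WR04-6. Asterisks mark an adjusted p below 0.05 with at least a 2-fold change. LOC_Os06g11840 and hexokinase-6 were called higher on all 3 days, and OsTPP6 and OsTPP3 lower on all 3 days.

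Around the kinase, 11 genes of SnRK1 subunits, MYBS factors, CBL and CIPK partners and hexokinases were examined. At 10 DAI 1 was higher and 0 were lower in WR04-6 by edgeR, with 5 of 11 at an unadjusted p below 0.05 and 2 lower by DESeq2. The share of all genes at that unadjusted p was not computed, and it is at least the 41.6% with an adjusted p below 0.05. At 12 DAI 2 were higher and 3 lower, and at 14 DAI 1 was higher and 2 were lower. Over all genes 12.1%, 16.3% and 10.5% were higher and 11.4%, 13.2% and 10.9% lower at the 3 days. The median log2 fold change of the list was -0.21, -0.37 and 0.07, beside 0.03, 0.06 and 0.08 for all genes. Hexokinase-6, an enzyme that phosphorylates glucose and also acts as a glucose sensor in rice, was higher on all 3 days, at 29.7 to 57.2 FPKM over the WR04-6 libraries and 7.84 to 13.8 FPKM over the QSZ libraries, without overlap. Its log2 fold change was 1.37 ± 0.20, 2.10 ± 0.17 and 1.79 ± 0.17 (adjusted p = 9.79e-05, 5.05e-07 and 2.35e-06). Hexokinase-5 was higher at 12 DAI (1.27 ± 0.17). CBL4, a calcium sensor of the family that binds CIPK kinases, was lower at 12 DAI (-2.62 ± 0.24, adjusted p = 1.2e-06) and at 14 DAI (-1.24 ± 0.23), and the SnRK1 beta subunit 2 was lower at 12 DAI (-1.74 ± 0.40) and 14 DAI (-1.11 ± 0.39, lost in 4 of 17 fits). Of 12 processing alternatives, 8 called CBL4 at 14 DAI (log2 as small as -0.83) and 7 called the beta subunit at 14 DAI (as small as -0.70). The alpha subunit copies OSK3 and OSK4, close relatives of SnRK1A whose reads could be divided with it, had log2 fold changes between -0.54 and 0.31. MYBS2, MYBS3, the SNF4-like gene and LOC_Os09g20010 lay between -0.55 and 0.49, and none of these 6 genes was called on any day.

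Among the alpha-amylase genes, RAmy3D, the sugar-starvation gene that MYBS1 activates, was not called on any day. Its log2 fold change was -4.11 ± 1.77, -4.18 ± 1.66 and -0.95 ± 1.46 (adjusted p = 0.077, 0.051 and 0.64), at 0.0148 to 2.94 FPKM in WR04-6 and 0.0416 to 13.2 FPKM in QSZ, and 99.9% of genes tested had a smaller replicate SD. RAmy3E was lower in WR04-6 at 12 DAI (-1.27 ± 0.43), a call lost in 3 of 17 fits and made in 7 of 12 processing alternatives, with a log2 value as small as -0.58. LOC_Os02g52710 was lower on all 3 days (-4.57, -4.27 and -3.94). At 12 DAI its FPKM was 11.7, 14.0 and 12.3 in WR04-6 against 411, 161 and 12.6 in QSZ, so the accessions overlapped, and the log2 fold change was -3.13 without QSZ replicate 1 and -4.83 without QSZ replicate 3. RAmy3D and RAmy3E are neighbouring copies between which reads could be divided.

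Next to OsTPP7, 5 other genes in the table lie within 50 kb on chromosome 9. LOC_Os09g20400, the next gene after OsTPP7, was also highest at 12 DAI in both accessions, at 127, 106 and 110 FPKM in WR04-6 against 110, 163 and 173 FPKM in QSZ, and in QSZ it rose by 3.29 ± 0.53 on the log2 scale at 12 over 10 DAI (adjusted p = 0.000905). It was not called between accessions on any day. LOC_Os09g20340 was higher in WR04-6 at 12 DAI (1.28 ± 0.40, lost in 2 of 17 fits and in 2 of 12 processing alternatives) and LOC_Os09g20420 was lower at 14 DAI (-2.42 ± 0.63, lost in 1 of 12 processing alternatives), at group means of at most 2.37 and 0.899 FPKM. LOC_Os09g20350, an ethylene-responsive factor gene, had log2 fold changes between -0.11 and 0.38 and was not called.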

How the data were processed

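RNA-seq was performed on 17 libraries of whole seeds, 9 of WR04-6 and 8 of QSZ. The authors made the table from paired reads, and the submitters' processing notes name cutadapt 1.9, HISAT2 2.0.4 and StringTie 1.3.4d without roles or the strand setting of the counting. The deposited table gives FPKM and estimated counts per gene, the counts as whole numbers. Genes with at least 0.1 FPKM in at least 2 libraries were tested with edgeR 4.0.16 on the estimated counts as deposited (TMM scaling, quasi-likelihood F tests, 6 groups of accession and day sharing 1 estimate of the spread) in R 4.3.3. Standard errors are the log2 fold change over the square root of F. P-values were adjusted by the Benjamini-Hochberg method over all 21949 genes. Calls used the thresholds of the study, an adjusted p below 0.05 and, for pairs of groups, a log2 fold change of at least 1. The scripts were tested on simulated data. Alternatives used DESeq2 1.42.0, limma 3.58.1, other scalings, pseudocounts of 0.01, 0.1 and 1, no filter, and each library left out. Poisson intervals cover counting error only, and fragments are estimated counts divided by 4.

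The 6 genes and the lists were chosen with earlier results of these data known. Named genes are the 6, the sugar and amylase lists, trehalose genes and neighbours of OsTPP7 that were called between accessions or had a mean of at least 10 FPKM, and the 2 genes most like each of the 6. LOC_Os10g40550, LOC_Os02g44235 and LOC_Os03g56580 fall outside this rule and were named after their values were seen. The study calls its replicates biological.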

Additional observations from a re-analysis of the deposited data

Results flagged for a closer look

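In 8 genes of the trehalose and sugar signalling lists, and in none of the 6 genes of the report by edgeR, the accession difference changed between days by a test of the change itself (edgeR F test of accession by day, adjusted over all genes, 17 libraries). Each is given as the adjusted p, followed by the log2 fold changes of WR04-6 over QSZ at 10, 12 and 14 DAI. For the TPS gene LOC_Os08g34580 the adjusted p was 0.0116, with -0.78, -1.58 and 1.42. For the TPS gene LOC_Os01g54560 it was 0.0119, with 0.43, -0.49 and 1.19. For the TPS gene LOC_Os02g54820 it was 0.0459, with -0.72, -1.47 and -0.13. For the trehalase gene LOC_Os10g37660 it was 0.0295, with -0.30, -1.51 and -1.03. For LOC_Os10g40550, annotated with TPP activity, it was 0.0315, with 0.95, -0.29 and -0.33. For the PAD4-like gene LOC_Os11g09010 it was 0.0168, with 0.32, -1.08 and 0.08. For CBL4 it was 0.0192, with -0.99, -2.62 and -1.24. For hexokinase-5 it was 0.0387, with 0.19, 1.27 and 0.82. The share of all genes called by the same test was 8.98%, beside 6 of 20 tested trehalose genes and 2 of 11 sugar signalling genes. These calls were not checked against the processing alternatives or the fits that left out 1 library.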

How the results depend on the processing

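Each count was recomputed with other scalings (median-ratio size factors, library totals without TMM, quantile normalization in limma), with DESeq2, with limma on log2(FPKM + 0.1), log2(FPKM + 1) or log2(FPKM + 0.01), without the filter, with counts divided by 4, with the libraries of 1 day alone, with a replicate block and with each library left out. Of 213 counts outside the leave-one-out fits, 25 moved by over 1.5 times. The 213 include the fit that summed the counts of OsCIPK15 and LOC_Os12g02200, which left other genes nearly unchanged. With quantile normalization 0 of the 6 genes were called at 12 DAI, in place of 1, and 6 trehalose genes were lower at 10 DAI in place of 3. Over time in QSZ 1 of the 6 genes was called, in place of 3, with library totals, with limma at pseudocounts 0.1 and 1, and with the replicate block. DESeq2 called 1 of the 6 genes (OsTPS1) for accession by day, in place of 0. With library totals and all 3 limma pseudocounts, 2 trehalose genes were higher at 10 DAI in place of 1, and of the sugar signalling list 2 were higher in place of 1 and 0 lower in place of 2 at 14 DAI. At 10 DAI the sugar signalling list had 2 lower genes with median-ratio size factors and DESeq2 and 1 with quantile normalization, in place of 0. With limma on log2(FPKM + 1), 4 trehalose genes were lower at 12 DAI in place of 7, and 2 at 14 DAI in place of 5. Leaving out single libraries gave 0 to 1 of the 6 genes called over time in WR04-6 and 0 to 3 in QSZ, 1 to 2 trehalose genes higher at 10 DAI, 3 to 5 lower at 14 DAI, and 0 to 1 (10 DAI) and 1 to 2 (14 DAI) genes of the sugar signalling list lower. The cause of these shifts was not tested. Over all genes, calls higher and lower in WR04-6 were 3488 and 1991, 5258 and 2005, and 3492 and 1745 at 10, 12 and 14 DAI with library totals, against 2660 and 2509, 3582 and 2897, and 2297 and 2383 with TMM.

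Signs turned in single genes that no test called. OsTPP7 at 12 DAI was 0.36 with library totals, 0.36, 0.34 and 0.36 with limma at pseudocounts 0.1, 1 and 0.01, and 0.032 with quantile normalization. With quantile normalization OsTPP1 was -0.063 at 10 DAI and -0.31 at 12 DAI, OsCIPK15 was -0.20 at 12 DAI, and MYBS1 was -0.092 at 14 DAI. OsCIPK15 was -0.92 at 12 DAI with the counts of LOC_Os12g02200 added. Leaving out single libraries gave -0.61 to 0.023 and -0.16 to 0.056 for OsTPP7 at 10 and 12 DAI, -0.80 to 0.92 and -0.56 to 1.42 for OsTPP1 at 10 and 12 DAI, and -0.19 to 0.49 for OsCIPK15 at 12 DAI. For MYBS1 in QSZ the change of 12 over 10 DAI was not called with limma at a pseudocount of 0.1, with limma at a pseudocount of 1 (-0.74), with quantile normalization (-1.40), with counts divided by 4 (-2.40) or with the replicate block (-2.21). Of 855 values of single genes outside the leave-one-out fits, 57 lost and 1 gained a call, as did 61 and none of 1241 with 1 library left out.

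The replicate numbers are shared between groups but were not taken as pairs. The deviations of libraries with the same number and day in both accessions correlated at -0.26 to 0.30 over 8 pairs, of which 3 were over 0.1. With the replicate block, 1 gene of the sugar signalling list was lower at 14 DAI in place of 2, and MYBS1 and SnRK1A were not called over time in QSZ (adjusted p = 0.069 and 0.051). The level of MYBS1 in QSZ at 12 DAI, about 14 fragments in all, is the value that depth limits most among the 6 genes.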
